A study of Mus musculus with 4 samples.

Results

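The 30 genes described here encode enzymes and regulators of cholesterol and fatty acid synthesis. They were taken as a list of symbols for their place in these pathways and matched through Ensembl identifiers to the 55414 genes of the count files. All 30 passed the low-count filter that left 19912 genes for testing. The list had 7 genes of the mevalonate pathway, 11 genes that carry squalene to cholesterol, 6 genes of sterol sensing and transport, and 6 genes of fatty acid synthesis. RNA was sequenced from primary neural stem cells of mouse cortex at E14.5, expanded as floating spheres, and then grown as a monolayer in medium with 20 ng/ml EGF and 10 ng/ml basic FGF. There were 2 libraries from wild type cells and 2 from Mettl4 knockout cells, and the labels give genotype as the difference between them. The Mettl4 protein methylates adenine bases, and the study set out to compare gene expression and splicing with and without it. The sources used here do not give the allele, the deleted part of the gene or the strain, and do not say whether the libraries of a group came from separate embryos or cultures. The p-values therefore rest on the spread between libraries, and that spread may be technical. Values for a genotype are given below in the order replicate 1, replicate 2.

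Cells make cholesterol from acetyl-CoA through the mevalonate pathway, which also supplies isoprenoid chains, and then through squalene and lanosterol. Fatty acids are made from the same acetyl-CoA by carboxylation, chain building, elongation and desaturation. Both routes are switched on by the SREBP transcription factors, which are held in the endoplasmic reticulum with the escort protein SCAP and retained there by INSIG proteins when sterols are plentiful. SREBP-2 acts mainly on sterol genes and SREBP-1 on fatty acid genes. Dividing neural cells build membrane from both pathways, and the brain makes its own cholesterol because lipoproteins of the blood do not cross into it.

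The start regions of 4 genes are shown because SREBP proteins act there together with the factors NF-Y and Sp1. Hmgcs1, Insig1 and Hsd17b7 had both knockout libraries below both wild type libraries, and Fasn did not. The sequences are RefSeq windows of the build GRCm38.p6, from 250 bases before to 50 after the annotated start, written 5′ to 3′ on the strand of the gene. Capitals mark the letters TCACCCCAC (a sterol regulatory element), CCAAT (the NF-Y box), CACGTG (an E-box) and GGGCGG (the Sp1 box), each on either strand.
Hmgcs1: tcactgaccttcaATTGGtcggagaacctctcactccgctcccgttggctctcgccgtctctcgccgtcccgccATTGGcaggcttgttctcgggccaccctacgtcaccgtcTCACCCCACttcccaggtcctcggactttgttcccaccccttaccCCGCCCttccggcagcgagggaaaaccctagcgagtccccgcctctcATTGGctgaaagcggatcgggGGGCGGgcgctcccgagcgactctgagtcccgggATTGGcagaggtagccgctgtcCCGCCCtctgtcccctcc
Insig1: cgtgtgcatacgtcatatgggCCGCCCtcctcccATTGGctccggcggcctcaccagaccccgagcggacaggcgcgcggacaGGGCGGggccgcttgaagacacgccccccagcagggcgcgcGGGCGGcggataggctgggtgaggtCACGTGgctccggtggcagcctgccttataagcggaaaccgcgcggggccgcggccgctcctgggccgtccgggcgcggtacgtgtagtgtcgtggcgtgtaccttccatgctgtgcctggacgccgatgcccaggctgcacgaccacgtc
Hsd17b7: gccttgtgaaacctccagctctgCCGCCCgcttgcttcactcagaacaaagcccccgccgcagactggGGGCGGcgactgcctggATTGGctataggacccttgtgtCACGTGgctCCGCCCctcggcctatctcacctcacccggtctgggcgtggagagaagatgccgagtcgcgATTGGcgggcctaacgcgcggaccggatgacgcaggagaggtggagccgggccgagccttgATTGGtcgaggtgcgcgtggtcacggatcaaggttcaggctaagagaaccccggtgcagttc
Fasn: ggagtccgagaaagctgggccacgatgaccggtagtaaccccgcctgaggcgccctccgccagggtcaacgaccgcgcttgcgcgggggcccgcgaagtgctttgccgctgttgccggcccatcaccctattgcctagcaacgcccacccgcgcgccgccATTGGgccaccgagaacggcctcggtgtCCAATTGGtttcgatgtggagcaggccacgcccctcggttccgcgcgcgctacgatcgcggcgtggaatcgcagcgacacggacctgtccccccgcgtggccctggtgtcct
The windows lie at chr13:119690101-119690400 (plus strand), chr5:28071162-28071461 (plus strand), chr1:169969156-169969455 (minus strand) and chr11:120824498-120824797 (minus strand). The Hmgcs1 window holds the sterol element starting 137 bases before the start, with CCAAT on the reverse strand on both sides of it. The Insig1 and Hsd17b7 windows each hold an E-box, starting 101 and 143 bases before the start. In the Fasn window, CCAAT letters on opposite strands overlap at 62 and 59 bases before the start, and none of the other motifs is present.

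RefSeq windows were matched for 24 of the 30 genes, with 32 windows in all because 5 genes have several starts. CCAAT was found in 21 of these 32 windows (65.6%), against 37.4% of all 32851 windows in the table. GGGCGG was found in 24 (75.0%), against 35.7%. CACGTG was found in 6 (18.8%), against 7.15%, in the windows of Dhcr7, Hsd17b7, Insig1, Sc5d and Scap. Of these genes, Dhcr7 and Scap did not have both knockout libraries below both wild type libraries. The same held for Acly, Ebp, Idi1, Insig2, Lss, Msmo1, Mvk, Nsdhl, Srebf1 and Srebf2. Like Dhcr7, these had both CCAAT and GGGCGG, Insig2 in separate windows. Cyp51, Hmgcs1, Hsd17b7, Insig1, Mvd, Sc5d and Tm7sf2 also had both, and their knockout libraries both lay below. Pmvk, with CCAAT alone, did have both knockout libraries below. TCACCCCAC was found in the window of Hmgcs1 alone, against 0.551% of all windows. These are matches of letters in a fixed window and not measured binding, and the shares were not tested.

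Mettl4 was lower in the libraries labelled knockout. Its level in CPM, counts scaled to library size with TMM factors, was 63.8 and 66.6 in the wild type against 15.6 and 17.6 in the knockout, or 25.5% of the wild type (log2 fold change -1.97, edgeR quasi-likelihood test, adjusted p = 0.00513). It was the only gene called in either direction, so the background of calls was 0.00502% of tested genes. A lack of calls does not show a lack of differences. Library totals ran from 12812064 to 19310668 counts. The stem cell markers were present, with all 12 of the fixed list tested and summed levels of 5454 and 5964 CPM in the wild type and 5349 and 6385 CPM in the knockout. Most of each sum was Fabp7, Vim and Slc1a3, and the lowest marker was Prom1, at 6.86 to 7.55 CPM.

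None of the 30 genes was called, and most lay slightly lower in the knockout. The counts were 0 called of 30 by edgeR, by DESeq2 and by limma-voom after adjustment over all genes, with 1 gene, 0 genes and 1 gene at an unadjusted p under 0.05. By edgeR that gene was Hsd17b7, lower in the knockout, and the share of all tested genes at that level was 2.77% in either direction and 1.62% lower. The log2 fold change was negative for 27 of 30 genes (90.0%), against 50.3% of all tested genes and 45.5% of those with a mean of at least 20 CPM, and other scalings and filters or leaving out a library gave 22 to 27 negative. The median was -0.15, with a range from -0.41 for Hsd17b7 to 0.07 for Insig2, while the median over all tested genes was -0.0013. In 12 of 30 genes both knockout libraries lay below both wild type libraries, against 14.9% of all tested genes and 11.9% of those with a mean of at least 20 CPM. In 0 of 30 they lay above, against 12.5%. Against the wild type mean, 24 genes were lower in knockout replicate 1 and 25 in knockout replicate 2, with medians of -0.11 and -0.16 on the log2 scale.

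**Figure D1:**
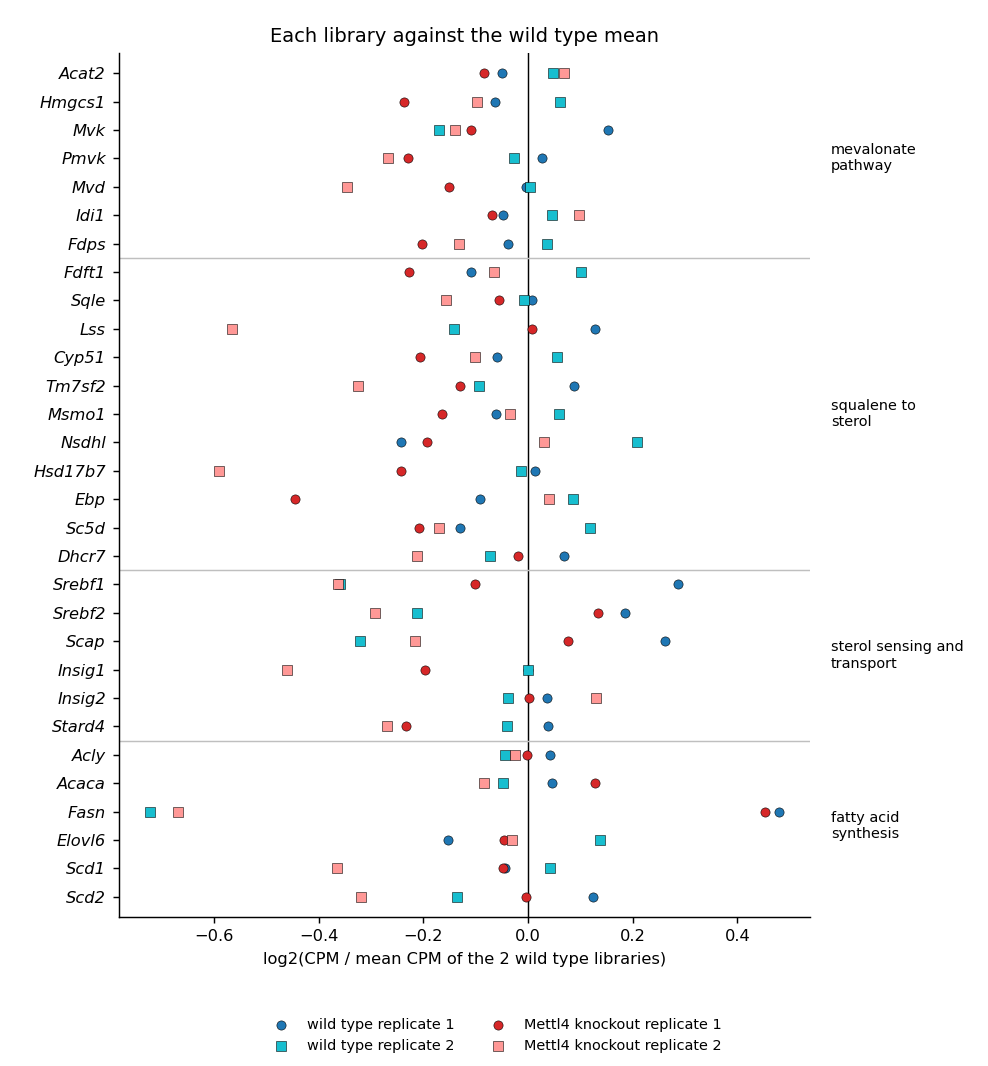
Level of each of the 30 genes in each of the 4 libraries, as log2 of the CPM over the mean CPM of the 2 wild type libraries (horizontal axis), with genes in pathway order from top to bottom. In 12 genes both knockout points (red, pink) lie to the left of both wild type points (blue, turquoise), and Fasn is split by replicate number instead.

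The differences were small next to the precision of the fit. The median standard error over the 30 genes was 0.17, 11 genes lay within 0.1 of 0, and 8 lay further than 0.2 from it, all of them on the negative side. The 95% interval left out 0 for 1 gene, Hsd17b7. Apart from Fasn, the intervals of the other 29 genes reached from -0.76 (Hsd17b7) to 0.47 (Insig2), each taken for its gene alone. Read counts did not limit these genes, since the lowest count was 296 (Ebp) and the highest 33702 (Scd2).

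**Figure D2:**
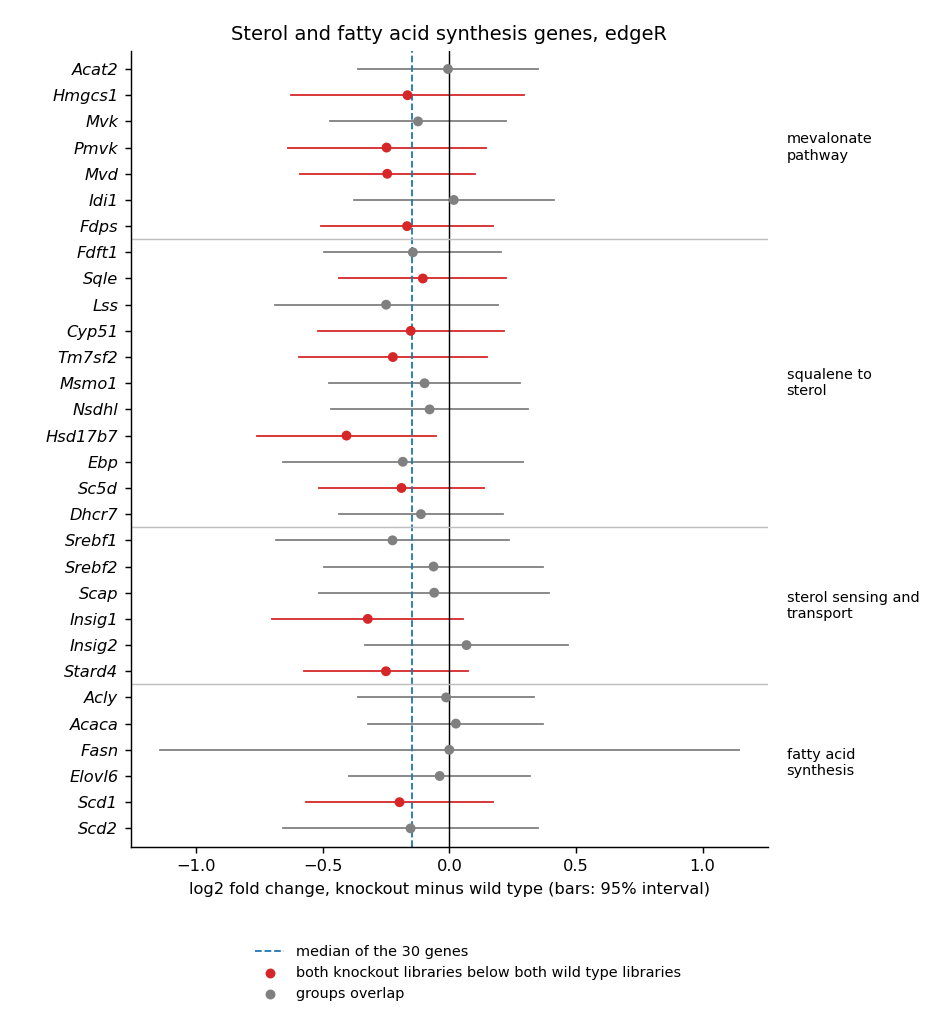
Log2 fold change of each gene, knockout minus wild type, from the edgeR fit, with its 95% interval as a bar. Red marks the 12 genes whose groups do not overlap, the dashed line is the median of -0.15, and only the interval of Hsd17b7 stays clear of 0.

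Among the genes of sterol sensing, Insig1 had non-overlapping groups and Insig2 did not. Insig1 encodes the retention protein whose own gene is a sensitive SREBP target. It read 417 CPM in both wild type libraries, and 364 and 303 CPM in the knockout. Both knockout libraries were below the wild type pair, replicate 2 the further, and the fold change was -0.32 (SE 0.17, edgeR adjusted p = 1). Without knockout replicate 2 it was -0.20. Insig2, the related protein that is less dependent on SREBP, read 24.0 and 22.8 CPM in the wild type and 23.4 and 25.6 CPM in the knockout. Its groups overlapped, at 0.07 (SE 0.18). The difference between the responses of Insig1 and Insig2 was not tested.

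The genes of the SREBP proteins and their escort did not separate by genotype. Srebf2, which encodes SREBP-2, read 262 and 199 CPM in the wild type and 253 and 188 CPM in the knockout (-0.06, SE 0.19). Srebf1, which encodes SREBP-1, read 89.1 and 56.9 CPM against 68.1 and 56.8 CPM (-0.22, SE 0.21). Scap read 66.9 and 44.7 CPM against 58.9 and 48.1 CPM (-0.06, SE 0.20). In each of these 3 genes replicate 1 was above replicate 2 in both genotypes, and the groups overlapped. Without wild type replicate 1 the fold changes of Srebf1, Srebf2 and Scap were 0.13, 0.15 and 0.26, and without knockout replicate 2 those of Srebf2 and Scap were 0.14 and 0.08, so their sign rests on single libraries. RNA levels do not show how much SREBP protein was cleaved.

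Stard4 encodes a carrier that moves cholesterol between membranes and is itself an SREBP target. It read 235 and 223 CPM in the wild type and 195 and 190.2 CPM in the knockout. The groups did not overlap and the libraries within each were close, at a fold change of -0.25 (SE 0.15, edgeR adjusted p = 1).

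In the mevalonate pathway 6 of 7 genes were negative, with a median of -0.17. Hmgcs1 makes HMG-CoA and read 1440.0 and 1570.2 CPM in the wild type and 1277 and 1407 CPM in the knockout (-0.17, SE 0.21). All its knockout values were lower, although wild type replicate 1 and knockout replicate 2 lay close together. Pmvk, the second kinase of the pathway, read 27.9 and 26.9 CPM against 23.4 and 22.8 CPM (-0.25, SE 0.18). Mvd, which decarboxylates the product of Pmvk, read 50.5 and 50.8 CPM against 45.6 and 39.8 CPM (-0.25, SE 0.16). Fdps, which joins the isoprene units into farnesyl diphosphate, read 279 and 293 CPM against 248 and 261 CPM (-0.17, SE 0.15). In these 4 genes the groups did not overlap, and 0 of them were called.

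The other genes of this stretch overlapped between genotypes. Acat2, the cytosolic thiolase that joins acetyl-CoA units, had a fold change of -0.0055 with values from 296 to 329 CPM. Idi1, the isomerase that sets up the isoprene units for joining, was at 0.02 with values from 584 to 655 CPM. In both genes replicate 2 was above replicate 1 in each genotype. Mvk, the first kinase, was at -0.12, with wild type replicate 1 the highest library at 78.0 CPM and the other libraries between 62.3 and 65.0 CPM.

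All 11 genes that lead from squalene synthesis to cholesterol were negative, with a median of -0.15. Sqle, the squalene epoxidase that is a control point of the branch, read 239 and 236 CPM in the wild type and 229 and 213 CPM in the knockout (-0.10, SE 0.15). Cyp51, the lanosterol demethylase, read 419 and 454 CPM against 378 and 407 CPM (-0.15, SE 0.17). Tm7sf2, a sterol reductase, read 45.8 and 40.4 CPM against 39.4 and 34.4 CPM (-0.22, SE 0.17). In all 3 the nearest libraries of the 2 genotypes lay closer together than the knockout libraries lay to each other.

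Hsd17b7 and Sc5d complete the genes of this branch whose groups did not overlap. Hsd17b7, the sterol 3-ketoreductase, read 79.2 and 77.7 CPM in the wild type and 66.3 and 52.1 CPM in the knockout, or 78.5 ± 1.01 and 59.2 ± 10.0 CPM (SD, n = 2 each). Both knockout libraries were low, replicate 2 the lower, and the fold change of -0.41 (SE 0.16, 95% interval -0.76 to -0.05) put the knockout at 75.5% of the wild type. Its adjusted p by edgeR was 1. Sc5d, the sterol desaturase near the end of the pathway, read 125 and 148 CPM against 118 and 121 CPM (-0.19, SE 0.15).

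The 6 remaining genes of the branch overlapped. Fdft1, the squalene synthase, was at -0.14 with values from 200.1 to 251 CPM. Lss, the lanosterol synthase, was at -0.25, with knockout replicate 2 alone at 116 CPM and the other libraries between 156 and 188 CPM. Without knockout replicate 2 the value of Lss was 0.0095. Set against the wild type library of the same number, the knockout was at -0.12 in replicate 1 and -0.42 in replicate 2. Msmo1, the C4-methyl oxidase, was at -0.10, and Nsdhl, which acts after it, at -0.08 with wild type replicate 2 the highest library at 118 CPM. Ebp, the sterol isomerase, was at -0.18, with knockout replicate 1 the lowest library at 17.5 CPM and the others between 22.3 and 25.2 CPM. Dhcr7, the final reductase of one route to cholesterol, was at -0.11 with values from 108 to 132 CPM.

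Summed over the 18 enzymes of both stretches, the level was 4793 and 5096 CPM in the wild type and 4411 and 4662 CPM in the knockout. The 2 knockout sums lay below the 2 wild type sums, by less than the distance between replicates at the nearest pair.

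Fatty acid synthesis genes showed less of a difference in the median, at -0.03. In 1 of 6 both knockout libraries lay below both wild type libraries, against 14.9% of all tested genes. The groups of the other 5 overlapped, as did those of 14463 of all 19912 tested genes. Acly, which releases acetyl-CoA from citrate, was at -0.01 with values from 321 to 341 CPM. Acaca, the carboxylase that commits acetyl-CoA to fatty acids, was at 0.03 with values from 217 to 251 CPM. Elovl6, which lengthens palmitate, was at -0.04, with the wild type libraries at 213 and 261 CPM and both knockout libraries between them. No test of the difference between fatty acid and sterol genes was made.

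The desaturases place the double bond of oleate. Scd1 read 263 and 279.7 CPM in the wild type and 263 and 211 CPM in the knockout (-0.20, SE 0.17). Its groups are counted as not overlapping although wild type replicate 1 and knockout replicate 1 were at 263.3 and 262.8 CPM, and with upper quartile factors they overlapped. Scd2, the main form of the brain, read 1944 and 1623 CPM against 1778 and 1429 CPM (-0.15, SE 0.23). Its groups overlapped, and replicate 1 was above replicate 2 by 1.20-fold in the wild type and 1.24-fold in the knockout. Scd1 and Scd2 are close paralogs, so their counts are uncertain where reads could match both.

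Fasn, the fatty acid synthase, differed by replicate number and not by genotype. It read 468 and 203 CPM in the wild type and 459.6 and 211 CPM in the knockout. Replicate 1 was 2.30-fold above replicate 2 in the wild type and 2.18-fold in the knockout, while the group means were 336 ± 187 and 335 ± 176 CPM (SD, n = 2 each). The fold change was -0.0004 with an interval from -1.14 to 1.14 in the fit that takes the libraries of a genotype as unpaired. Leaving out a single library moved it from -0.67 to 0.72.

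The split by replicate number reached other genes of the list. Replicate 1 was above replicate 2 in both genotypes for 16 genes and below it in both for 11, and 3 were mixed. Over all 19912 tested genes, the sign was the same in both genotypes for 12813. The GC content of the longest transcript moved with this split. With all tested genes in 5 equal bins, the bin of highest GC content (54.8% and above) had a median log2 ratio of replicate 1 to replicate 2 of 0.21 in the wild type and 0.18 in the knockout, against -0.12 and -0.09 in the lowest bin. The highest bin held Fasn, Mvd, Mvk, Pmvk, Scap, Srebf1 and Srebf2, and 6 of these 7 had replicate 1 higher in both genotypes, Mvd being the exception. With the GC trend of each library removed, the ratio for Fasn went from 1.20 to 0.99 in the wild type and from 1.12 to 0.93 in the knockout, and for Srebf1 from 0.65 to 0.43 and from 0.26 to 0.06. The labels name no batch, day or culture behind the replicate numbers.

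**Figure D3:**
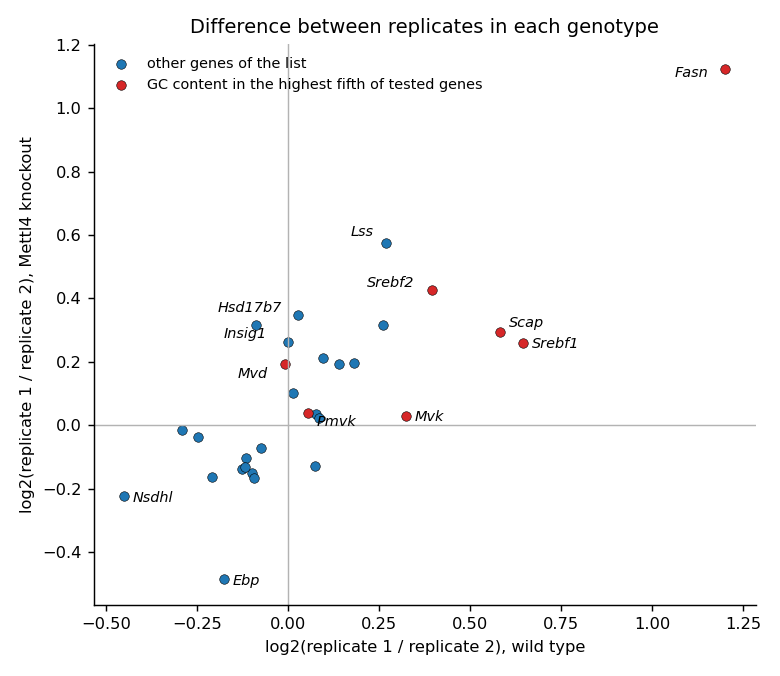
Log2 ratio of replicate 1 to replicate 2 for each of the 30 genes, in the wild type (horizontal axis) and in the knockout (vertical axis), with red for the 7 genes in the bin of highest GC content. Fasn stands at 1.20 and 1.12, far from the others, and 27 genes lie in the quadrants where both genotypes have the same sign. Of all 19912 tested genes (not shown), which reach down to lower counts, 12813 had the same sign.

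With the GC trend removed, both knockout libraries lay below both wild type libraries in 14 of 30 genes, against 14.7% of all tested genes, and the median fold change was -0.12 with 24 genes negative. Scaled by library total alone, without TMM, 12 genes did not overlap, against 13.5% of all tested genes, and 9 of them were among the 12 above.

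Levels can be compared between genes per kilobase of exon, using exon lengths of the GENCODE M21 annotation. On this scale Hmgcs1 and Scd2 stood highest in the wild type, at 328 and 326 CPM per kb, and did not differ beyond their spread. Idi1 followed at 175, Insig1 at 135, Acat2 at 123 and Cyp51 at 98.9 CPM per kb. The reductases and the isomerase of the sterol branch were lower, with Dhcr7 at 21.6, Hsd17b7 at 15.4, Ebp at 10.3 and Tm7sf2 at 9.79 CPM per kb. Lss, earlier in the branch, was also low, at 15.9 CPM per kb. The lowest level was that of Insig2, at 6.74 CPM per kb, next to Scap at 7.50. Srebf2 was at 32.1 and Srebf1 at 13.0 CPM per kb. Exons of 11 of the 30 genes overlap another annotated gene, among them Fdft1 with Ctsb, Tm7sf2 with Vps51 and Hmgcs1 with an antisense gene, and no source used here states whether counting kept strand, so these levels are uncertain.

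**Figure D4:**
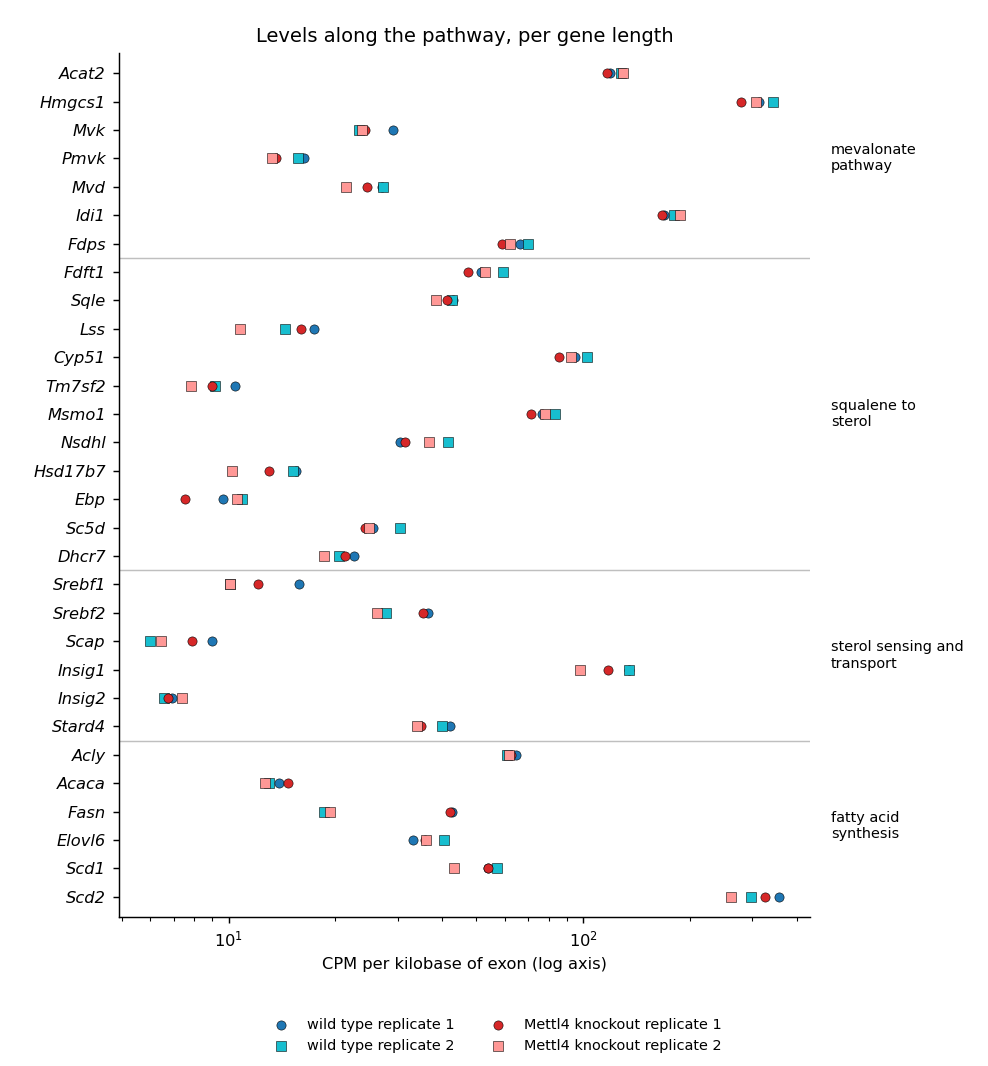
Level of each gene per kilobase of exon (CPM per kb, log axis) in the 4 libraries, in pathway order from top to bottom. Levels run from 6.74 CPM per kb for Insig2 to 328 for Hmgcs1 in the wild type mean, and the distance between genes is far larger than that between genotypes.

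A wider list of 55 lipid synthesis genes, chosen for their place in these pathways, gave 0 calls among the 53 that could be tested (edgeR, DESeq2 and limma-voom alike), with 4 at an unadjusted p under 0.05 by edgeR, against 2.77% of all tested genes. Of the 53, 35 were negative (66.0%), against 50.3% of all tested genes, and the median fold change was -0.06. Among 10 further genes listed as SREBP targets 9 were negative, with a median of -0.11, and among 10 genes of SREBP cleavage and sterol-regulated turnover 3 were negative, with a median of 0.03. The 8 genes of isoprenoid branches had a median of -0.06, the 7 of acetyl-CoA and NADPH supply one of -0.06, and the 18 of elongation, desaturation and esterification one of -0.08. Scd3 was under the low-count filter and Faxdc2 was not matched to an identifier.

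**Figure D5:**
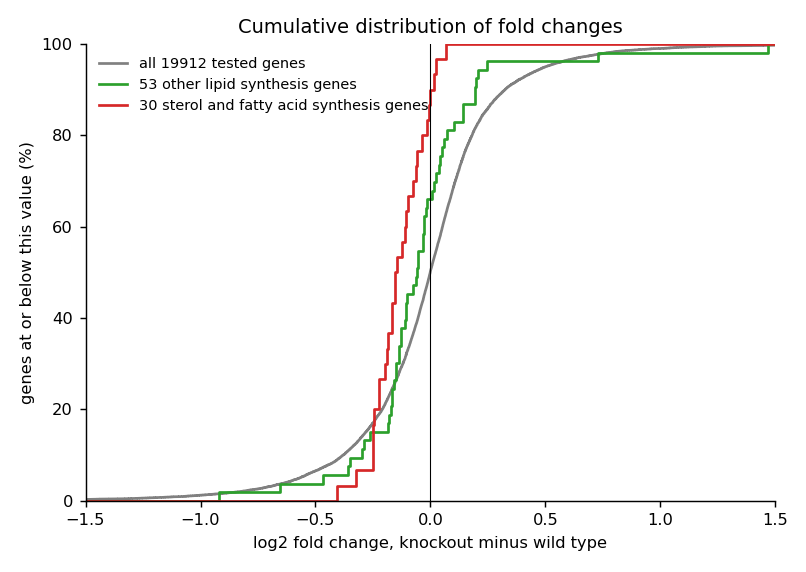
Cumulative share of genes (vertical axis, in percent) at or below each log2 fold change, knockout minus wild type, for all 19912 tested genes (grey), the 53 other lipid synthesis genes (green) and the 30 sterol and fatty acid synthesis genes (red). The red curve reaches 90.0% at 0, where the grey curve is at 50.3% and the green one at 66.0%.

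Acss2, Agpat2 and Acacb were among the 4 genes of the wider list at an unadjusted p under 0.05. Acss2, which makes acetyl-CoA from acetate and is an SREBP target, read 106 and 103 CPM in the wild type and 86.5 and 65.0 CPM in the knockout (-0.47, SE 0.16, edgeR adjusted p = 1). Like Hsd17b7 and Insig1 it was lower in both knockout libraries and lowest in replicate 2. Acacb, the acetyl-CoA carboxylase of mitochondria, and Agpat2, an acyltransferase, were near the low end of detection, at 2.46 and 0.350 CPM in the wild type and 1.29 and 1.02 CPM in the knockout.

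Among the markers of other cell types and the genes of hypoxia 0 were called by edgeR, and their levels are given beside those of the lipid genes. Of 11 tested astrocyte markers 9 were negative (median -0.34), with summed levels of 834 and 932 CPM in the wild type and 907 and 764 CPM in the knockout. Aldh1l1, an astrocyte enzyme, went the other way at 0.73. Of 10 tested oligodendrocyte lineage markers 9 were positive (median 0.36), with sums of 1478 and 1351 CPM against 1533 and 1493 CPM, and Mag at 0 counts in every library. Olig1 made up most of each of these sums, at 911 and 761 CPM against 865 and 824 CPM, with a fold change of 0.01. Sox10, the factor that defines the lineage, read 0.53 and 1.34 CPM against 3.22 and 2.52 CPM. These values were near the low end of detection, at 7 and 22 counts against 61 and 46. Sums of neuronal markers were 1123 and 1408 CPM against 1230 and 1440 CPM. Most of each sum was Map2, at 999.7 and 1266 CPM against 1110 and 1335 CPM. Gap43 came next at 52.1 to 72.8 CPM, while Tubb3 and Dcx were at 6.49 CPM or less in every library. Microglial markers summed to 6.40 to 7.44 CPM, with Tmem119 and Itgam at 0 counts in all 4 libraries, and endothelial markers to 3.62 to 4.51 CPM. Mesenchymal and mural markers summed to 10.6 and 7.44 CPM in the wild type and 4.70 and 4.10 CPM in the knockout. Only 2 of the 9 listed passed the low-count filter, Acta2 at -1.21 and Tagln at -1.16, with 13 to 88 counts. Both had the knockout libraries below the wild type libraries, against 14.9% of all tested genes. The others had at most 16 counts in any library, and among them Dcn went the other way, at 3 and 0 counts against 7 and 6. Astrocytes and oligodendrocytes make much of the cholesterol of the brain, and in bulk RNA fewer cells of a type cannot be told apart from less RNA per cell.

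Of 11 tested hypoxia and glycolysis genes 10 were positive, with sums of 2398 and 2319 CPM in the wild type and 2258 and 3180 CPM in the knockout. Most of each sum was Eno1, Pgk1 and Ldha. Both knockout libraries lay above both wild type libraries in 6 of the 11, against 12.5% of all tested genes. They lay below in 1. Egln3, with the smallest unadjusted p of this list by edgeR, read 15.3 and 14.8 CPM against 22.1 and 28.8 CPM. Pdk1, a kinase that holds pyruvate back from mitochondria, read 10.5 and 7.99 CPM against 11.9 and 39.6 CPM. For Pdk1, Bnip3 and Pfkl, knockout replicate 1 was also above both wild type libraries, and knockout replicate 2 stood apart. Without it the median of the 30 genes was -0.10 with 24 negative, and the value of Hsd17b7 was -0.24. Insig1, Hsd17b7, Lss, Scd1 and Acss2 were lowest in that library. So were Pmvk, Mvd, Sqle, Tm7sf2, Dhcr7, Srebf1, Srebf2, Stard4, Acaca and Scd2. In the wild type too, replicate 2 was below replicate 1 for all of these but Mvd and Scd1, though barely for Insig1. Acat2, Hmgcs1, Idi1, Fdps, Fdft1, Cyp51, Msmo1, Ebp and Sc5d were instead lowest in knockout replicate 1. The remaining genes of the list were lowest in a wild type library. The part of the astrocyte, oligodendrocyte, mural and hypoxia genes in these differences was not tested.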

How the data were processed

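RNA sequencing was analysed from 4 libraries of cultured neural stem cells, 2 per genotype. The authors deposited a table of raw read counts for each library. The submitters' processing notes name STAR 2.7.10, featureCounts and the build GRCm39, and no source used here states the strand setting or what was done with multi-mapping reads. Identifiers without version were matched to symbols from GENCODE M21 (52081 of 55414). That annotation and the RefSeq windows are of the earlier build GRCm38, and were used for names, exon length, GC content and start regions only.

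Genes were filtered with filterByExpr of edgeR 4.0.16 in R 4.3.3 (minimum count of 10), scaled with TMM, and tested for genotype on all 4 libraries (quasi-likelihood F test, robust=TRUE). A gene was called at a Benjamini-Hochberg adjusted p under 0.05 over all tested genes. The standard error was derived from the estimate and its F statistic. The test was checked on simulated counts. Every fold change is on the log2 scale and is negative where the knockout was lower. The 2 libraries of a group differed beyond counting error (chi-square per degree of freedom 16.6 in the wild type and 26.3 in the knockout), so all 4 were used. Library totals of 12812064 to 19310668 counts left the spread between libraries, not counting error, as the limit for these genes. Intervals rest on reads without molecular identifiers.

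The genes and the lists were chosen with earlier results of these data known, so counts over them are descriptions and no list was tested. All 30 genes are named, with every library's value for the sterol sensors and for genes whose groups did not overlap, and of the wider list those with the smallest p, of which 1 is not reported here. Of the marker lists, only genes on which a statement rests are named. Alternatives were RLE, upper quartile and no scaling factors, a stricter and no low-count filter, limma-voom 3.58.1, DESeq2 1.42.0, robust=FALSE, the replicate number as a block, and leaving out each library. Removing the trend of counts with GC content in every library (5 spline degrees of freedom) was chosen after seeing the data; 98.5% of tested genes have a GC value.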

Additional observations from a re-analysis of the deposited data

How the results depend on the processing

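None of the 30 genes was called under any of the 15 alternatives, and their median log2 fold change stayed between -0.10 and -0.16. Between 22 and 27 genes were negative, and 17 kept their direction throughout, 16 of them negative. Mettl4 was called each time. The number of genes called was 41 without a low-count filter, 6 by DESeq2, 9 with the replicate block, 76 with the replicate block and the GC trend removed, and from 1 to 47 when 1 library was left out (31 and 17 without wild type replicates 1 and 2, 47 and 1 without knockout replicates 1 and 2). In those fits a single library stands for its group and is taken to vary as the other group does. Acss2 was the 1 call in the wider list, with the block and the GC trend removed (-0.47, adjusted p = 0.0429). No label says that replicate numbers mark pairs. Deviations of same-numbered libraries from their group means correlated at 0.228 over all tested genes and at 0.801 over the 30 genes. The 30 include Fasn, whose replicate ratios lie far from the others, and no value was taken without it. Their lowest count was 296, while the tested genes reach down to the low-count filter, and no value was taken at matched levels. The correlation is a hint from the data and not the design. With the block, Mvd, Lss, Hsd17b7, Insig1 and Stard4 had an unadjusted p under 0.05, as did 1560 of all tested genes (7.83%). The adjusted p of Hsd17b7 was 0.283 there, and 0.0979 with the GC trend removed too.

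Directions changed for 13 genes, none of them called, and the cause was not tested. Fasn was at 0.0075 with RLE, 0.010 with upper quartile factors, 0.013 unfiltered, 0.0069 by DESeq2, 0.0060 by limma-voom, 0.013 with the replicate block (SE 0.098, against 0.47 without it), 0.063 with the GC trend removed and 0.071 with both. Acat2 was at 0.0065 with RLE, 0.00021 with upper quartile factors, 0.0036 unfiltered, 0.0065 by DESeq2, and 0.019 and 0.016 with the GC trend removed, without and with the block. In the same GC fits Acly was at 0.021 and 0.021, Idi1 at -0.0038 and -0.0053, and Scap at 0.012 and 0.020. Leaving out 1 library gave ranges of -0.084 to 0.13 for Acaca, -0.083 to 0.069 for Acat2, -0.043 to 0.030 for Acly, -0.45 to 0.039 for Ebp, -0.18 to 0.13 for Elovl6, -0.67 to 0.72 for Fasn, -0.068 to 0.10 for Idi1, -0.57 to 0.0095 for Lss, -0.27 to 0.046 for Mvk, -0.28 to 0.18 for Nsdhl, -0.31 to 0.26 for Scap, -0.50 to 0.13 for Srebf1 and -0.29 to 0.15 for Srebf2.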
